A study of Mus musculus with 6 samples.

Results

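The nuclear-encoded genes of the respiratory chain were followed in embryonic mouse retina with and without a conditional deletion of Foxp1, a forkhead transcription factor. They were taken by name from the authors' deposited comparison table, as every gene whose symbol has the form of a subunit of complexes I to V (Nduf, Sdh, Uqcr, Cyc1, Cox and Atp5 symbols) apart from 6 that end in -ps. The rule found 78 genes of the 55487 in the count table, with 37 in complex I, 4 in complex II, 9 in complex III, 11 in complex IV and 17 in complex V. All 78 passed the filter on low counts that left 17275 genes for testing. The members were chosen by symbol, but the family itself was selected on its log2 fold changes between the 2 groups, which were already known, so those fold changes are given as a description.

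Bulk RNA was sequenced from 6 retina samples of C57BL/6 embryos at embryonic day 16.5, all littermates, with the left and right eyes of an animal pooled. The 3 cKO-labelled libraries came from Six3-Cre; Foxp1 fl/fl animals and the 3 control-labelled libraries from Foxp1 fl/fl animals, so both groups carried the floxed alleles and, per the labels, Cre alone set them apart. Cre was driven by Six3, a gene active in the early eye field and ventral forebrain, so the model is not specific to a retinal cell class. No group of Six3-Cre animals without floxed alleles was analysed here.

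The labels were checked before the comparison. Foxp1 had 1850, 1816 and 1742 counts in cKO-labelled libraries, against 1213, 1019 and 1096 counts in control-labelled libraries. The gene targeted for deletion was therefore higher in every library labelled cKO, by 0.65 on the log2 scale (edgeR adjusted p = 4.6e-05), and the authors' deposited table lists it as lower in cKO, at -0.60. A count over the whole gene does not measure the floxed part separately. Library 2 labelled cKO is labelled male and had 14143 Xist counts and 2 counts over 4 Y-linked genes, and library 2 labelled control is labelled female and had 13 Xist counts and 3091 Y-linked counts. With the labelled sexes exchanged between the groups, number for number, Xist and the Y-linked genes matched in all 6 libraries. Every difference below is stated for the groups as labelled, and its sign would turn round if the group labels were exchanged.

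The respiratory chain passes electrons from NADH, through complex I, and from succinate, through complex II, to ubiquinone, then through complex III and cytochrome c to complex IV, which reduces oxygen. Complexes I, III and IV pump protons, and complex V, the ATP synthase, uses the gradient to make ATP. Most subunits are encoded in the nucleus and imported, while the mitochondrial genome encodes core subunits of every complex except complex II. The retina is known for a high demand for energy in the adult, and its progenitors for glycolysis alongside respiration.

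As a family, the 78 genes were slightly more abundant in cKO-labelled libraries. Their counts summed to 6716, 7143 and 6891 CPM (counts scaled to 1e+06 per library) in cKO-labelled libraries, against 6087, 6447 and 6567 CPM in control-labelled libraries. The sums did not overlap, and the means of 6917 ± 215 CPM in cKO-labelled and 6367 ± 249.7 CPM in control-labelled libraries (SD, n = 3 each) gave a fold of 1.09. The family took 0.664% of the counts. Of the 78 members, 75 had a fold change above 0, where 50.1% of all tested genes did, and the median member was higher by 0.14 on the log2 scale with a middle range of 0.10 to 0.18, where the median of all tested genes was 0.00073. The groups did not overlap in CPM for 44 members, all higher, where 10.8% of all tested genes were higher without overlap and 9.3% lower. Past an edgeR adjusted p of 0.05 there were 2 members, both higher, and none lower, where 0.781% of all tested genes passed, 0.295% higher and 0.486% lower. In bulk RNA, a different share of cells that use these genes and a different amount of their RNA per cell cannot be told apart.

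The shift was not equal in the libraries of a group. Each member was set against its own mean over the 6 libraries, on the log2 CPM scale. The median member was at 0.014, 0.12 and 0.077 in cKO-labelled libraries, and at -0.14, -0.033 and -0.014 in control-labelled libraries. Library 1 labelled control was thus the lowest and library 2 labelled cKO the highest, and the nearest libraries of opposite groups were 0.014 and -0.014. The number of members above their own mean was 53, 73 and 66 of 78 in cKO-labelled libraries and 3, 13 and 26 of 78 in control-labelled libraries. Without library 1 labelled control the median member was higher by 0.10, and without library 2 labelled cKO by 0.11. Leaving out both libraries whose sex-linked genes went against their labels gave 0.13, with 0 members past the threshold. The number of members past it was 0 without library 2 or 3 labelled cKO or library 1 or 2 labelled control, 9 without library 1 labelled cKO and 14 without library 3 labelled control.

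**Figure D1:**
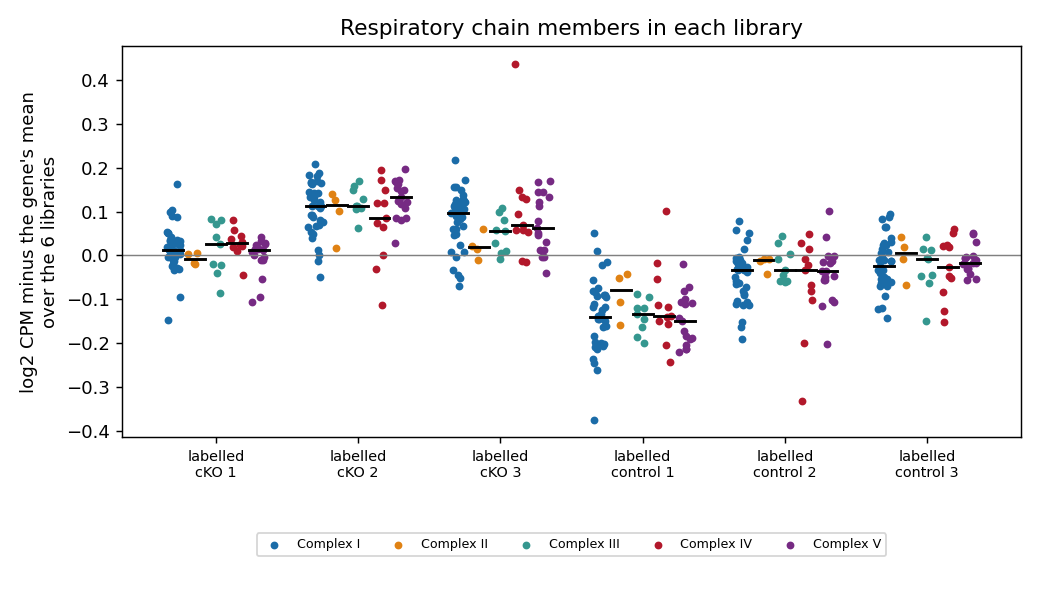
Log2 CPM of each of the 78 members minus its own mean over the 6 libraries (vertical axis), by library as labelled, with a point per gene, colours for complexes I to V and a bar at each complex's median. The medians lie lowest in library 1 labelled control, highest in library 2 labelled cKO, and the complexes move together within a library.

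Complex I oxidises NADH and is the largest of the complexes. Its 37 members summed to 2005, 2123 and 2072 CPM in cKO-labelled libraries, against 1804, 1898 and 1945 CPM in control-labelled libraries. Of these, 35 were higher and 2 lower, with a median log2 fold change of 0.14, and 22 did not overlap between the groups. Among all tested genes, 10.8% were higher without overlap and 9.3% lower. The 7 core subunits that carry the flavin and the iron-sulfur clusters or line the quinone site were all higher, by 0.072 to 0.16, and 6 of them without overlap. Ndufv1, which binds NADH and the flavin, had 111, 115 and 110.2 CPM in cKO-labelled libraries, against 93.9, 106 and 106 CPM in control-labelled libraries. Its group ranges were close but separate. Ndufs8, which holds a pair of iron-sulfur clusters, overlapped, with 37.8, 44.1 and 37.3 CPM in cKO-labelled libraries, against 34.9, 38.0 and 40.5 CPM in control-labelled libraries.

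The 30 accessory members of complex I had a median of 0.15, and both extremes of the complex were among them. Ndufb8, an accessory subunit of the membrane arm (ENSMUSG00000025204, minus strand of chromosome 19, 44548572 to 44555440 in mm10), had 79.6, 82.6 and 79.6 CPM in cKO-labelled libraries, against 69.0, 69.3 and 70.1 CPM in control-labelled libraries. It was higher by 0.21 ± 0.05 (standard error) on the log2 scale and its replicates were tight, with SDs of 1.71 CPM in cKO-labelled and 0.593 CPM in control-labelled libraries (n = 3 each). It was the complex I member past the threshold. Ndufb4, also of the membrane arm, had the largest fold change of the complex at 0.24 ± 0.09, with 26.0, 27.4 and 26.6 CPM in cKO-labelled libraries, against 18.8, 24.3 and 24.5 CPM in control-labelled libraries. Most of its gap came from library 1 labelled control. Ndufa6, a LYR-motif subunit of the matrix arm, was at the bottom with -0.02 ± 0.06, at 35.8, 34.9 and 34.4 CPM in cKO-labelled libraries and 35.5, 35.0 and 35.8 CPM in control-labelled libraries.

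Complex II, succinate dehydrogenase, is shared with the tricarboxylic acid cycle and is encoded by the nucleus alone. Its 4 members showed the smallest shift, with a median of 0.085, and the groups overlapped in 3 of them. Sdha, the flavoprotein that oxidises succinate, had 174, 176 and 173 CPM in cKO-labelled libraries, against 169, 173 and 179 CPM in control-labelled libraries, a log2 fold change of 0.0050 ± 0.05. Sdhb, the iron-sulfur subunit, was at 0.09 ± 0.05. The membrane anchors Sdhc and Sdhd were at 0.08 ± 0.05 and 0.12 ± 0.06, and Sdhc was the member without overlap. Among all tested genes, 10.8% were higher without overlap. The sum of the 4 genes was 399.7, 422 and 404 CPM in cKO-labelled libraries, against 379.9, 397 and 403 CPM in control-labelled libraries, so these sums overlapped. The difference between complex II and the other complexes was not tested.

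Complex III carries electrons from ubiquinol to cytochrome c. All 9 members had a fold change above 0, with a median of 0.13. Of the 9, 4 were higher without overlap, where 10.8% of all tested genes were. Uqcrfs1, the Rieske iron-sulfur protein, had 99.6, 103 and 98.5 CPM in cKO-labelled libraries, against 84.6, 92.6 and 91.9 CPM in control-labelled libraries. Cyc1, cytochrome c1, had 92.4, 102 and 97.5 CPM in cKO-labelled libraries, against 86.1, 89.8 and 94.4 CPM in control-labelled libraries. The Rieske protein's ranges were separate and those of cytochrome c1 overlapped. Uqcrh, the hinge protein, had the largest fold change at 0.18 ± 0.06, and the small subunit Uqcr11 the smallest at 0.02 ± 0.06.

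Complex IV, cytochrome c oxidase, had 11 members by this rule, all with a fold change above 0 and a median of 0.15. Of the 11, 5 were higher without overlap, where 10.8% of all tested genes were. Cox7b had 61.1, 68.9 and 64.3 CPM in cKO-labelled libraries, against 50.9, 60.8 and 56.8 CPM in control-labelled libraries, or 0.21 ± 0.06 higher on the log2 scale. Its lowest library labelled cKO was just above its highest library labelled control. Cox6a1, among the most abundant subunits, was at 0.0085 ± 0.05, with 101, 99.4 and 98.3 CPM in cKO-labelled libraries and 95.8, 97.9 and 104 CPM in control-labelled libraries. Cox7a1, the heart and muscle form of subunit 7a, had the largest fold change in the family at 0.28, but its standard error was 0.30, since it rested on 29, 24 and 38 counts in cKO-labelled libraries and 28, 21 and 23 counts in control-labelled libraries.

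Complex V, the ATP synthase, had 17 members, 16 of them higher, with a median of 0.14. Of the 17, 12 were higher without overlap, where 10.8% of all tested genes were. The catalytic F1 part was represented by 5 genes with a median of 0.11. Atp5b, the catalytic beta subunit, had 864, 914 and 867 CPM in cKO-labelled libraries, against 786, 821 and 845 CPM in control-labelled libraries. Atp5a1, the alpha subunit, had 616, 651 and 621 CPM in cKO-labelled libraries, against 582, 610.2 and 615 CPM in control-labelled libraries, and its ranges were separated by less than 1 CPM. Atp5d, the delta subunit of F1, was at 0.02 ± 0.04.

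The peripheral stalk holds the alpha and beta subunits still against the rotor. Its 4 genes were all higher without overlap, where 10.8% of all tested genes were. Their log2 fold changes were 0.12 for Atp5h, 0.17 for Atp5o and Atp5pb, and 0.22 for Atp5j. The c ring, the rotor that protons drive, is made of an identical mature protein from 3 genes. Atp5g3 was at 0.16 ± 0.05, Atp5g2 at 0.13 ± 0.06 and Atp5g1 at 0.04 ± 0.05, and of these Atp5g3 alone did not overlap. Atp5j2, the f subunit of the membrane part (ENSMUSG00000038690, minus strand of chromosome 5, 145183698 to 145192062 in mm10), was the other member past the threshold. It had 74.3, 82.8 and 82.5 CPM in cKO-labelled libraries, against 68.6, 63.9 and 70.8 CPM in control-labelled libraries, a log2 fold change of 0.24 ± 0.05. Atp5k, the e subunit of the same membrane part, was at -0.0082 ± 0.08, with 23.4, 26.7 and 25.4 CPM in cKO-labelled libraries and 22.8, 27.0 and 26.1 CPM in control-labelled libraries. Members of the same membrane part thus lay near both ends of the family's range.

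**Figure D2:**
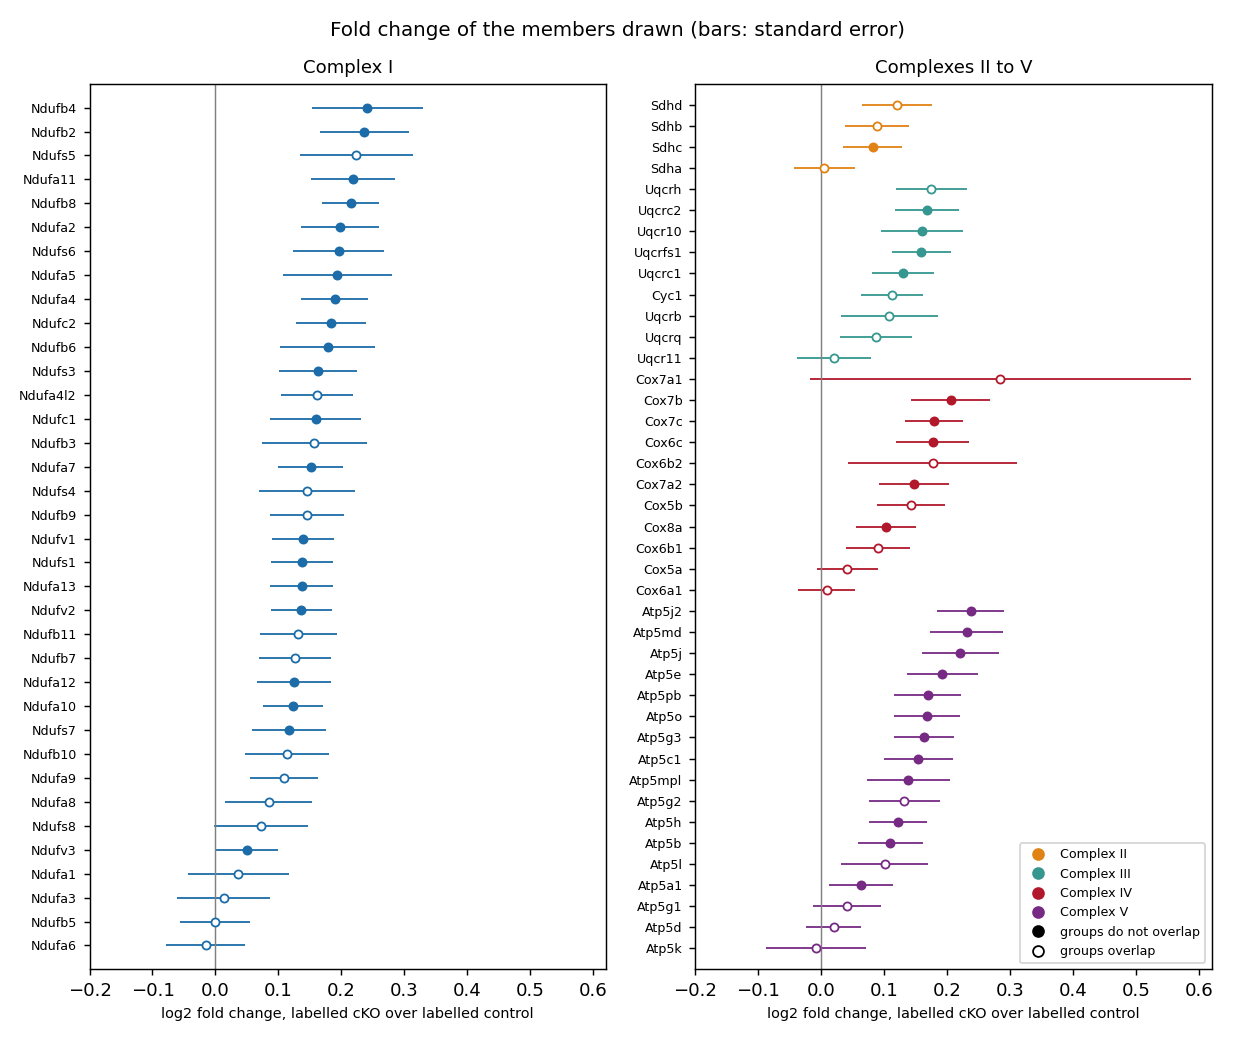
Log2 fold change of 77 of the 78 members, cKO-labelled libraries over control-labelled libraries (horizontal axis), by gene within each complex, with bars for the standard error and filled points where the groups do not overlap in CPM (3 libraries each). Filled points number 43, the member not drawn also did not overlap, and 3 members lie below 0.

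Levels between genes were compared per exon length, as TPM, the counts divided by summed exon length and scaled to 1e+06 per library. The order between groups is read on CPM only, since TPM also moves with the lengths of the other genes in a library. Atp5b stood at 551 ± 12.6 TPM in cKO-labelled libraries and 535 ± 17.8 TPM in control-labelled libraries, and Atp5a1 at 532 ± 10.5 TPM in cKO-labelled and 533 ± 17.7 TPM in control-labelled libraries (SD, n = 3 each). The alpha and beta subunits, which F1 holds in equal number, were therefore within their spread of each other in control-labelled libraries. Cox6b1, Cox8a and Cox6a1 followed, with means of 433, 416 and 384 TPM over the 6 libraries. Within a complex the highest member exceeded the lowest by 22.7-fold in complex I, 1.72-fold in complex II, 3.20-fold in complex III, 77.7-fold in complex IV and 22.9-fold in complex V. Ndufa4l2 was the highest in complex I, where it and Ndufa4 were placed by symbol, and Ndufa4 is known, from human work, as a subunit of complex IV. Without these 2 genes the spread of complex I was 18.8-fold, with Ndufa2 the highest at 233 TPM. By this ratio complex II, with 4 members, was the most even and complex IV, with 11, the least. A ratio of extremes depends on the number of members, which was not allowed for. The lowest of complex IV were Cox6b2 and Cox7a1, at 14.4 and 5.58 TPM, so its ratio rested on Cox7a1, a gene of low counts. The 3 c ring genes were at 238 TPM for Atp5g2, 164 TPM for Atp5g3 and 34.8 TPM for Atp5g1.

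Some subunits exist as a pair of forms that tissues use differently, and in the embryonic retina the common forms were the more abundant for the subunits of complex IV described here. Cox6a2, Cox7b2 and Cox8b, known from heart and muscle or from testis, had 0 to 3 counts in any library, and Cox8c had 0 counts in all 6, where a count of 0 still allows up to 3 counts a library. Against these, Cox8a had 2490, 2390 and 2495 counts in cKO-labelled libraries and 2058, 2302 and 2282 counts in control-labelled libraries. Other restricted forms were detected. Cox6b2, known from testis, had 146, 160 and 164 counts in cKO-labelled libraries and 130, 127 and 145 counts in control-labelled libraries, and its mean of 14.4 TPM over the 6 libraries stood against 433 TPM for Cox6b1. Cox7a1, the heart and muscle form, had 29, 24 and 38 counts in cKO-labelled libraries and 28, 21 and 23 counts in control-labelled libraries. The order was the other way round for Ndufa4l2, a relative of Ndufa4 that is known as a hypoxia-induced gene. It was at 291 ± 29.6 TPM in cKO-labelled libraries and 272 ± 10.8 TPM in control-labelled libraries, above Ndufa4 at 153 ± 3.76 TPM in cKO-labelled and 140.2 ± 8.85 TPM in control-labelled libraries. The ranges of Ndufa4l2 in CPM overlapped between the groups, at 127, 125 and 108 CPM in cKO-labelled libraries and 112, 102 and 108 CPM in control-labelled libraries.

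**Figure D3:**
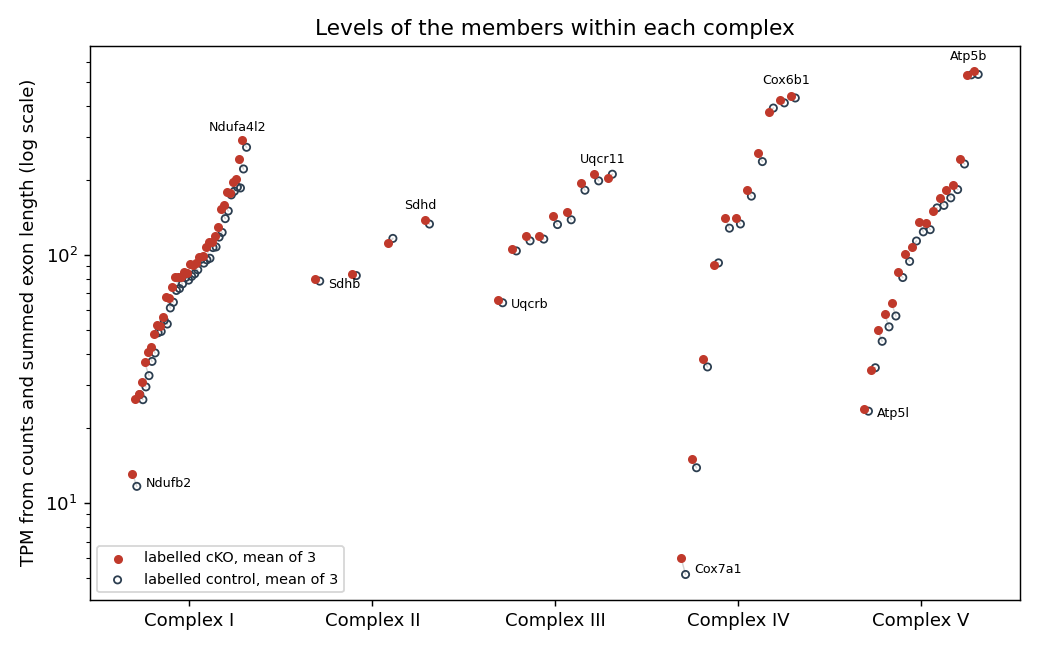
Mean TPM of each member in the 3 cKO-labelled libraries (filled) and the 3 control-labelled libraries (open) on a log axis, ordered by level within each complex, with the highest and lowest gene named. Complex II spans 1.72-fold and complex IV 77.7-fold.

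Promoter windows were read because the members shared a direction, and because NRF1, the ETS factor GABP and YY1 are known regulators of these genes. RefSeq windows of GRCm38.p6, 250 bases before to 50 after a start, were found for 65 of the 78 members. On either strand, the NRF1 letters (GCGCAGGCGC, with any base in place of the G after its A) were in 17 members, 26.2%, against 10.7% of the other tested genes with a window and 5.19% of all windows. ETS letters, ccggaag on either strand, were also in 17 members, 26.2%, against 18.4% and 9.93%. The 10 YY1 letters, the longer capitals of the Atp5j window below, were in 5 members, 7.69%, against 2.13% and 0.995%, and the SP letters gggcgg in 40.0%, against 68.4% of the other tested genes. Base composition was close, with a median GC content of 58.3% in members and 61.0% in the other tested genes. These shares are descriptions of letters and no test was made. Members with and without the NRF1 letters had median log2 fold changes of 0.13 and 0.14. The medians were 0.12 and 0.15 for the ETS letters, and 0.15 and 0.14 for the YY1 letters.

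Below are 6 windows, from 200 bases before to 20 after the start, chosen to set letters beside fold changes, with NRF1, ETS and YY1 matches on either strand in capitals. Ndufb4 (chr16:37654349-37654568, minus strand) and Sdha (chr13:74350221-74350440, minus strand) hold 3 NRF1 matches each, and are by fold change the highest member of complex I and the lowest of complex II. Uqcrc1 (chr9:108936448-108936667, plus strand) holds 1. Cox6a1 (chr5:115348939-115349158, minus strand) holds 2 and an ETS match, and Atp5k (chr5:108434380-108434599, minus strand) has 1 of each, both from genes with a fold change near 0. Atp5j (chr16:84834957-84835176, minus strand), with the largest fold change of the peripheral stalk, has the YY1 and ETS letters at the start shown.
Ndufb4: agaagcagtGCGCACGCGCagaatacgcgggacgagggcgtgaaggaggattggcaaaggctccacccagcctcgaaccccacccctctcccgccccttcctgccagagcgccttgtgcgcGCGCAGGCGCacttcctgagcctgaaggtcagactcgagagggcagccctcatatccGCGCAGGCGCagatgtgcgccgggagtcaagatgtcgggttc
Sdha: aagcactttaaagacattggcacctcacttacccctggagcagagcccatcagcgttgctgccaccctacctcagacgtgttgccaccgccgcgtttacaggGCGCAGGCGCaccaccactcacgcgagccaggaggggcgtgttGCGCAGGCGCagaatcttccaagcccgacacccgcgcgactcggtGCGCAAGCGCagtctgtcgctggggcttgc
Uqcrc1: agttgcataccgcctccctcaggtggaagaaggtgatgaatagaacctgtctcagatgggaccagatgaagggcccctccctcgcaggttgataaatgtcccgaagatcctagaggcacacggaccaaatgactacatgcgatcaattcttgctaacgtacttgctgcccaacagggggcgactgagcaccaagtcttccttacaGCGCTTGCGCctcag
Cox6a1: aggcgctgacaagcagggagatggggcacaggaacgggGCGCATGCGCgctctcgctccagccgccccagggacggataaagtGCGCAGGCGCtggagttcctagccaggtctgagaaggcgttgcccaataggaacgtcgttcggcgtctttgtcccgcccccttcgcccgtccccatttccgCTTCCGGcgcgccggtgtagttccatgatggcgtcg
Atp5k: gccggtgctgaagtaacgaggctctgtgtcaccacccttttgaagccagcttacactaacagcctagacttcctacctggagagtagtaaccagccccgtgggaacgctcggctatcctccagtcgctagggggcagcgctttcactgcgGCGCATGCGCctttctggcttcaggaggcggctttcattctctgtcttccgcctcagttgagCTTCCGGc
Atp5j: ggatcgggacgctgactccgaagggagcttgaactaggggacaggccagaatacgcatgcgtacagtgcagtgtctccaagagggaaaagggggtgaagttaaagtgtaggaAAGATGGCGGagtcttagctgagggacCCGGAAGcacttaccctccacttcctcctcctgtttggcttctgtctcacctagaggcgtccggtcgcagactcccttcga

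Over the members with a window, log2 fold changes ran from -0.016 to 0.24 with the NRF1 letters and from -0.00028 to 0.28 without. Whether the letters bear on the fold changes was not tested. The Atp5j window shown lies inside the gene's annotated span and next to the start of Gabpa, which encodes the DNA-binding part of GABP on the opposite strand. The outermost annotated starts of the 2 genes lie 700 bases apart and their spans overlap. Gabpa had 61.4, 66.3 and 59.3 CPM in cKO-labelled libraries and 62.3, 60.3 and 65.6 CPM in control-labelled libraries, and these ranges overlapped. A link between the values of the 2 genes was not tested. The sources used here do not give whether counting used the strand, and reads of the overlap cannot be assigned with certainty.

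The subunits encoded in the mitochondrial genome mostly had fold changes below 0, unlike the nuclear members. Of 13 such genes, 11 had a fold change below 0 and none passed the threshold in edgeR or limma-voom, with a median of -0.15, although 4 had an unadjusted p under 0.05 and DESeq2 called 4. Among all 17275 tested genes DESeq2 called 566, and the share at that unadjusted p is not given here. The 7 complex I genes summed to 1121, 1133 and 1138 CPM in cKO-labelled libraries, against 1365, 1327 and 1159 CPM in control-labelled libraries. mt-Cytb, the cytochrome b of complex III, had 498, 507 and 526 CPM in cKO-labelled libraries, against 615, 601 and 518 CPM in control-labelled libraries. The 3 complex IV genes summed to 1264, 1252 and 1280.5 CPM in cKO-labelled libraries, against 1449.9, 1351 and 1218 CPM in control-labelled libraries. Libraries 1 and 2 labelled control were high in each of these sums, while library 3 labelled control was close to or within the range of cKO-labelled libraries. The closest to the threshold was mt-Nd5, at -0.23 ± 0.06 on the log2 scale (edgeR adjusted p = 0.055). The complex V pair, mt-Atp6 and mt-Atp8, summed to only 2.29 to 2.87 CPM in cKO-labelled libraries and 2.87 to 3.60 CPM in control-labelled libraries.

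**Figure D4:**
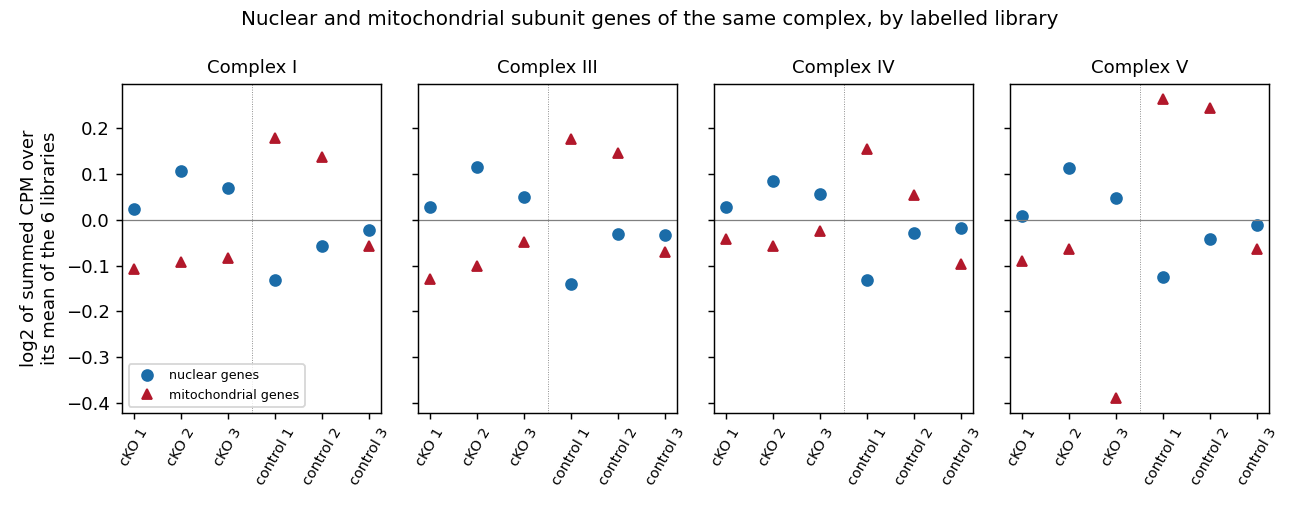
Log2 of the summed CPM of the nuclear members (circles) and of the mitochondrially encoded subunits (triangles) of complexes I, III, IV and V over their own mean of the 6 libraries, by library as labelled. Nuclear sums are lowest and mitochondrial sums high in library 1 labelled control, and the mitochondrial sum of complex V rests on under 4 CPM.

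Other genes of the pathway were taken from lists of assembly factors, further subunits or associated proteins, carriers, enzymes and regulators. They were 121 genes in all that are not members, of which 120 were tested. Of these, 87 had a fold change above 0 and 33 below, where 50.1% of all tested genes were above 0. The threshold was passed by 0.781% of all tested genes and by 1 of these 120. That gene was Uqcc2, an assembly factor needed to make cytochrome b and so complex III, with 48.3, 51.0 and 49.0 CPM in cKO-labelled libraries, against 39.7, 41.9 and 42.1 CPM in control-labelled libraries. It rose by 0.26 ± 0.06 on the log2 scale (edgeR adjusted p = 0.041), and the adjusted p was above 0.05 when library 2 or 3 labelled cKO or library 1 or 2 labelled control was left out, and 0.71 without the 2 libraries whose sex-linked genes went against their labels. The range of its adjusted p over all alternatives was 0.0048 to 0.71.

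Further subunits or associated proteins that the naming rule misses resembled the members, with 5 of 5 above 0 and a median of 0.18. Cox4i1, the largest nuclear subunit of complex IV, had 279, 312 and 302 CPM in cKO-labelled libraries, against 244, 261 and 275 CPM in control-labelled libraries (edgeR adjusted p = 0.087). Assembly factors had smaller values, with 38 of 46 above 0 and a median of 0.066. Of the 46, 6 were higher without overlap, where 10.8% of all tested genes were. By complex the medians of the assembly factors were 0.054, 0.13, 0.030, 0.072 and 0.12 from complex I to complex V. Genes of the mitochondrial pores and carriers were above 0 in 16 of 16, with a median of 0.086, the tricarboxylic acid cycle in 11 of 13, with 0.050, and cytochrome c with ubiquinone synthesis in 8 of 10, with 0.051. In edgeR no gene of these lists beyond Uqcc2 passed the threshold, and limma-voom called none, Uqcc2 included. DESeq2 also called 2 of the further subunits or associated proteins and 1 of the pores and carriers, where it called 566 of all 17275 tested genes.

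Among 17 nuclear regulators of respiratory genes, 10 were below 0 and the median was -0.069, with none past the threshold in edgeR or limma-voom, 4 at an unadjusted p under 0.05 and 1 called by DESeq2. For all 17275 tested genes DESeq2 called 566, and the share at that unadjusted p is not given here. Nrf1 had 90.5, 92.9 and 90.9 CPM in cKO-labelled libraries, against 84.0, 81.7 and 89.4 CPM in control-labelled libraries (edgeR adjusted p = 0.25). Yy1 had 123, 121 and 125 CPM in cKO-labelled libraries, against 137, 128 and 129 CPM in control-labelled libraries (edgeR adjusted p = 0.32). Hcfc1, a transcriptional coregulator that binds PGC-1-related coactivators, had 421, 391 and 385 CPM in cKO-labelled libraries, against 515, 481 and 423 CPM in control-labelled libraries (edgeR adjusted p = 0.068). The ranges of these 3 regulators were separate, with Nrf1 higher and Yy1 and Hcfc1 lower in cKO-labelled libraries. Of all 17 regulators, 3 were higher and 5 lower without overlap. The shares of all tested genes were 10.8% higher and 9.3% lower without overlap.

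A like shift was present in the genes for ribosomal proteins. All 76 tested genes for cytoplasmic ribosomal proteins were above 0, with a median of 0.17, 10 past the threshold and 62 without overlap. Of 78 genes for mitochondrial ribosomal proteins, 70 were above 0, with a median of 0.11, 1 past the threshold and 24 without overlap. All these calls and separations were higher, where 0.295% of all tested genes passed as higher and 10.8% were higher without overlap. By library, the cytoplasmic ribosomal genes had medians of 0.034, 0.13 and 0.086 in cKO-labelled libraries and -0.17, -0.067 and -0.023 in control-labelled libraries. The order of the 6 libraries was that of the respiratory members, and no test of the difference between the families was made.

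These families are made of short transcripts, and short genes in general were higher in cKO-labelled libraries. Over 17245 tested genes with an exon length, log2 fold change and length had a Spearman rho of -0.27, given as a description since the genes share 6 libraries. The members' median summed exon length was 1696.5 bases, against 3923 bases for all tested genes. When the tested genes were cut into 5 bins of equal number by exon length, 46 members in the shortest bin, up to 1916 bases, had a median of 0.15 and the 3403 other genes 0.075, and in the next bin 18 members had 0.14 and the other genes 0.046. Members lay above other genes of like length in each bin, though the longest bin held 1 member. With each library's trend with exon length removed, 68 of the 78 members were above 0 with a median of 0.081, and 0 passed the threshold, where 0.22% of all genes did. The medians of the complexes were then 0.083, 0.036, 0.080, 0.068 and 0.098 from complex I to complex V.

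**Figure D5:**
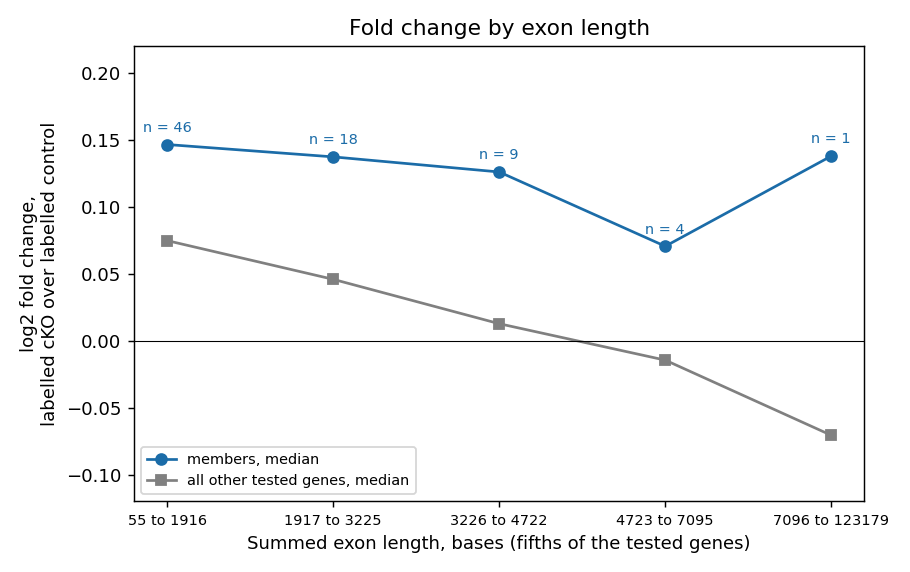
Median log2 fold change, cKO-labelled libraries over control-labelled libraries, of the members (circles, with their number) and of all other tested genes (squares) in 5 bins of summed exon length in bases. Other genes run between 0.075 in the shortest and -0.071 in the longest bin, and members lie above them in each.

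Some members share sequence with other annotated genes. Of the 78, 32 shared at least 5% of their 50-base words with transcripts of other genes, and these had a median of 0.16, against 0.12 for the 46 with less. The gene that shared most was a processed pseudogene for 20 of the 32, a protein-coding gene for 10 and a non-coding RNA gene for 2. Atp5l shared 84.8%, Atp5h 47.9% and Uqcrb 43.4%, each most with a processed pseudogene, and Atp5o shared 50.3%, most with another protein-coding entry of the same symbol, so their counts are uncertain where the counting split or dropped such reads. Both members past the threshold were among the 46.

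The authors' deposited table gives the opposite direction. In it, 77 of the 78 members are lower in cKO, with a median log2 fold change of -0.15, and the sign is opposite to that from the counts in 76. Of the 68 members with an adjusted p in the authors' deposited table, 12 pass 0.05, all lower, where 8.97% of all genes with one pass it and 2.98% pass it as lower. The authors' deposited table lists Ndufb8 at -0.21 and Atp5j2 at -0.24. Foxp1 turns in the same way between the 2 sources.

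Cell-type markers were set beside the result. The 11 retinal markers were all detected and summed to 3668 to 3911 CPM in cKO-labelled libraries and 3622 to 3791 CPM in control-labelled libraries. Of these 11, 6 had a fold change above 0, and the median log2 fold change of the list was 0.017. Among them, 3 had an unadjusted p under 0.05 and 1 of the 11 passed the edgeR threshold, while DESeq2 called 2 and limma-voom 0. From all 17275 tested genes edgeR called 135, DESeq2 566 and limma-voom 13. The share of all tested genes at that unadjusted p is not given here. The marker past it was Atoh7, a factor needed for retinal ganglion cells and named after its values were seen, with 545, 551 and 504 CPM in cKO-labelled libraries, against 437, 407 and 459 CPM in control-labelled libraries (log2 fold change 0.30 ± 0.06, edgeR adjusted p = 0.018). Lens markers, in contrast, summed to 15.6 to 210 CPM in cKO-labelled libraries and 53.2 to 772 CPM in control-labelled libraries, with 7 of 7 tested markers lower and none past the threshold. Erythroid markers summed to 110.7 to 180 CPM in cKO-labelled libraries and 74.4 to 147 CPM in control-labelled libraries, with 6 of 6 tested markers higher and none past the threshold. Skeletal muscle markers summed to 29.6 to 45.1 CPM in cKO-labelled libraries and 46.3 to 88.4 CPM in control-labelled libraries. Of 10 tested, 1 was higher and none passed. Endothelial markers summed to 297 to 306 CPM in cKO-labelled and 328 to 353 CPM in control-labelled libraries, and pigment epithelium markers to 32.8 to 97.2 CPM in cKO-labelled and 59.2 to 100.1 CPM in control-labelled libraries. Markers of microglia stood at 18.1 to 20.1 CPM in cKO-labelled and 19.4 to 24.4 CPM in control-labelled libraries. Those of mesenchyme and pericytes stood at 97.8 to 170.2 CPM in cKO-labelled and 62.4 to 115 CPM in control-labelled libraries, and those of astrocytes at 193 to 198 CPM in cKO-labelled and 191 to 211 CPM in control-labelled libraries. Tested markers above 0 were 2 of 4 endothelial, 0 of 6 pigment epithelium, 0 of 6 microglia, 3 of 6 mesenchyme and pericyte and 2 of 3 astrocyte genes. Lens, erythroid, muscle, pigment epithelium and astrocyte markers had 0 genes at an unadjusted p under 0.05, and DESeq2 and limma-voom called 0 of them. At that p there were 2 endothelial markers, 1 of microglia and 1 of mesenchyme and pericytes, of which edgeR and limma-voom called 0 and DESeq2 called 1, an endothelial one. No marker list was at 0 throughout. The part of these cells in the respiratory chain values was not tested.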

How the data were processed

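RNA of 6 retina samples was measured by paired-end sequencing after depletion of ribosomal RNA, with a directional kit, per the labels' protocols. The submitters' processing notes name the mm10 build, DESeq2 1.32.0, featureCounts 1.5.1, STAR 2.7.6a and cutadapt 2.8, and no settings, strand included, are given there. The authors deposited whole-number read counts per gene, not normalized. The authors' deposited comparison table holds a mean normalized count (a signal value), a log2 fold change with its error, a test statistic (a score) and p-values, raw and adjusted, per the file headers. Columns were matched to samples by the description in the labels, and 0 columns of per-sample values were left unmapped.

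Depth was 23707761 to 25714620 counts per library, and per the labels each replicate is a separate animal. Counts were fitted with edgeR 4.0.16 (R 4.3.3), with filterByExpr, TMM, robust quasi-likelihood tests on genotype alone and Benjamini-Hochberg adjustment at 0.05 over all tested genes, and the fit was tested on simulated data. CPM uses TMM-scaled totals. TPM divides counts by summed GENCODE M21 exon length of mm10 before scaling to 1e+06. Shared sequence was counted as 50-base words of the GENCODE transcripts. RefSeq promoter windows were searched for the letters given on both strands. Alternatives were RLE and upper-quartile scaling, filters, no robust estimation, DESeq2 1.42.0, limma-voom (limma 3.58.1), labelled sex, the replicate number, exon-length offsets (lowess span 0.3) and left-out libraries or chromosomes. The exchanged sex labels were chosen after seeing the data.

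The members and lists were chosen with earlier results of these data known. Named genes were the 3 highest per complex in TPM, members past the threshold, the extremes of fold change, fixed roles (core, catalytic, anchor, redox, F1, c ring, stalk and isoform pairs), the called or most abundant gene of each pathway list, and Foxp1, and 1 of these genes is not reported here by itself. Uqcrc1, Uqcrb, Atp5l, Nrf1, Yy1, Gabpa, mt-Nd5, mt-Cytb, mt-Atp6, mt-Atp8 and Atoh7 were named after their values were seen.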

Additional observations from a re-analysis of the deposited data

How the results depend on the processing

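The median log2 fold change of the members and their summed CPM kept their direction under every alternative for which they were computed, with medians of 0.081 to 0.16 and folds of 1.06 to 1.10. Counts past the threshold depended on the fit. Members past it numbered 2 in the report's fit, 14 with no filter beyond 1 count, 0 without robust estimation, 7 with DESeq2, 0 with limma-voom, 1 with labelled sex as a covariate, 0 with the exon-length trend removed, 0 without library 2 of each group (those at odds with the labelled sex) and 16 with the labelled sexes exchanged. In the same order, all genes past it numbered 135 in the report's fit, then 742, 10, 566, 13, 113, 38, 9 and 746, and 83 with a filter at 1 CPM. Pathway genes that are no members numbered 1 in the report's fit, and then 8, 0, 9, 0, 0, 1, 0 and 7. Leaving out each library in turn gave 0 to 14 members, 19 to 778 genes and 0 to 11 pathway genes, with the most without replicate 3 labelled control.

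With the replicate number as a block, 23 members, 1065 genes and 13 pathway genes passed. Whether the numbers pair the samples cannot be told from these values. Deviations of same-numbered libraries correlated at 0.085, -0.052 and 0.20 over 17275 genes. Replicates 1 and 3 labelled cKO correlated best with the control-labelled library of their own number. Replicate 2 labelled cKO correlated best, at 0.17, with replicate 1 labelled control.

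Fold changes near 0 changed sign. With labelled sex as a covariate, Sdha was at -0.0060, Uqcr11 at -0.0012 and Cox6a1 at -0.0012. With the length trend removed, Sdha was at -0.0089, Uqcr11 at -0.056, Cox6a1 at -0.068, Ndufs8 at -0.0068 and Atp5d at -0.044. Without library 2 of each group, Sdha was at -0.0048, Ndufs8 at -0.0040 and Atp5g1 at -0.017. With exchanged sexes Atp5k was at 0.034. Leave-one-out ranges were -0.014 to 0.030 for Sdha, -0.031 to 0.048 for Uqcr11, -0.015 to 0.044 for Cox6a1, -0.0080 to 0.13 for Ndufs8, -0.077 to 0.043 for Atp5k and -0.0089 to 0.076 for Atp5g1. The cause of these changes was not tested. Over 56 named genes and 19 settings, 956 of 1062 values kept direction and side of the threshold, 26 lost a call, 56 gained one and 24 changed sign. In simulated data for this comparison, 18% of the genes given the smallest change, which exceeded the family's, were called among 17037 genes. The simulation gave all genes the same biological variation, while the members varied less, with a median coefficient of 6.03% against 8.72% for all tested genes. The members' median level was also higher, at 61.9 CPM against 19.8 CPM. The 18% is therefore not a rate for the members. Low counts limit Cox7a1, and the limit given for a count of 0 covers counting error only.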
